A study of Rattus norvegicus with 6 samples.

Results

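Genes of DNA replication and S phase were compared between beta cell-enriched preparations from immature and mature male Wistar rats. The members were 41 listed genes, of which 38 matched a probe set that the array's annotation assigns to a single gene. Those 38 are described here, out of 14506 named genes on the array. Mcm3, Mcm4 and Chaf1a are not analysed here. The study set 3 preparations from suckling animals at postnatal day 20 against 3 from young adults of about 2 months, weighing 250 to 280 g, to follow the functional maturation of beta cells. Every animal was a male Wistar rat, and the labels name no treatment. Cells were enriched by light scatter and autofluorescence, without an antibody, and the series calls them primary cultured. Preparations of an age are labelled as biological replicates, with the number of animals in each not stated.

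Before a cell divides it must copy its genome once. In G1, the origin recognition complex with Cdc6 and Cdt1 loads the MCM helicase at origins. At the start of S phase, cyclin E with Cdk2 and other kinases activate that helicase together with Cdc45 and the GINS complex, and polymerases then copy the DNA from primers laid down by primase. Most of these genes are transcribed in waves under E2F transcription factors, so that their mRNAs are abundant in cycling cells and low in resting ones. Rodent beta cells divide often in early postnatal life and seldom in the adult.

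Signals are on a log2 scale after RMA, which is the authors' background correction, quantile normalization and probe summary, so that 1 log2 unit stands for a 2-fold difference. Differences are given as adult minus day 20, tested with limma over all 14506 genes with Benjamini-Hochberg adjustment, and a gene passed at an adjusted p under 0.05. Array medians lay between 6.35 and 6.39 and first quartiles between 4.91 and 4.94. Without detection calls, signals close to the first quartile may be background. The labelled cell type was checked by its markers. The mean log2 signal of 8 measured beta cell markers lay between 11.64 and 12.13 on adult and between 10.31 and 10.92 on day 20 arrays, but that of 12 acinar markers, between 13.75 and 14.00 over the 6 arrays, was also high, so that exocrine transcripts were part of the RNA of every preparation. In bulk RNA of this kind, fewer cycling cells and less of an mRNA per cycling cell cannot be told apart.

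The upstream sequence of members is shown because these genes are known for E2F elements near their start. RefSeq promoter windows of build GRCr8, from 250 bases before to 50 bases after the annotated start, were found for 32 of the 38 members. Ccne2, Cdc6, E2f1, E2f8, Orc1 and Rrm2 had no window in that table. The windows were searched on both strands for the E2F element letters TTTCCCGC and TTTGGCGC. At least 1 of them occurred in the windows of 9 of the 32 members (28.1%), against 2.31% of 11970 measured genes with a window and 1.45% of all 33469 windows. The 9 were Cdt1, Gins1, Mcm5, Mcm6, Mcm7, Pola1, Pole, Rfc3 and Tyms. The letters CCAAT, the core of the element bound by NF-Y, stood in 18 of the 32 (56.2%), against 39.0% of the measured genes. The E2F letters and CCAAT do not contain each other, and in Gins1 matches to TTTGGCGC on both strands overlap. A match is only a description of the letters in this window.

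Shown first are the 5 genes with the largest measured differences among those that passed and hold such an element, from 250 bases before to 10 bases after the start, 5′ to 3′ on the gene's strand. Capitals mark the E2F letters and CCAAT, on either strand. Pole lies at chr12:52053653-52053912 on the minus strand, Gins1 at chr3:160184670-160184929 on the plus strand, Mcm5 at chr19:13488563-13488822 on the plus strand, Mcm6 at chr13:42404343-42404602 on the minus strand and Mcm7 at chr12:22163169-22163428 on the minus strand.
Pole: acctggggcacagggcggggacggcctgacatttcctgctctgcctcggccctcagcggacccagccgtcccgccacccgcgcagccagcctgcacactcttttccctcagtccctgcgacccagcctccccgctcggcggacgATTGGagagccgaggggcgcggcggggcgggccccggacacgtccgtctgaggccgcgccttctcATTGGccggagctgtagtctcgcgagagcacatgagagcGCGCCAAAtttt
Gins1: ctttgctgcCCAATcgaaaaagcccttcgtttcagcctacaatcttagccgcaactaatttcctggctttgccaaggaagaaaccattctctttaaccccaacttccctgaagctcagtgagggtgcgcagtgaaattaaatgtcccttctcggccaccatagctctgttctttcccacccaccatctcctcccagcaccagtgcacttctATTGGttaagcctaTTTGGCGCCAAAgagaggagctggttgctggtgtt
Mcm5: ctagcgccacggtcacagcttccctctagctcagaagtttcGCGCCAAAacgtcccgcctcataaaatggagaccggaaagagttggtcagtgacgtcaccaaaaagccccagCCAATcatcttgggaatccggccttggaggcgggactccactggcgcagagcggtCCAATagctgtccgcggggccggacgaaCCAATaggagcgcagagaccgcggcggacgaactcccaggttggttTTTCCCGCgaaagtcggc
Mcm6: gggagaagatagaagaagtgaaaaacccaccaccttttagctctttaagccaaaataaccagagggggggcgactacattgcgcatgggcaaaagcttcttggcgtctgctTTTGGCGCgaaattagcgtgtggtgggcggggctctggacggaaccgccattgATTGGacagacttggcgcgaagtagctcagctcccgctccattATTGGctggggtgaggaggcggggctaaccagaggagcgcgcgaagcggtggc
Mcm7: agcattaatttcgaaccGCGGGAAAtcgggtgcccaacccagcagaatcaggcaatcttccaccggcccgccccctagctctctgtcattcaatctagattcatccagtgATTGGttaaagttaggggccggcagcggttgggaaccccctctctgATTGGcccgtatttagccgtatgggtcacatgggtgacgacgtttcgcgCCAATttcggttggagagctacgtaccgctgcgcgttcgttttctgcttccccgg
The E2F letters began at -2 in Pole, at -25 and -21 in Gins1, at -209 and -8 in Mcm5, at -139 in Mcm6 and at -233 in Mcm7, counting the base before the start as -1.

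For comparison, the windows of Pcna (chr3:139955811-139956070 on the minus strand) and Rpa1 (chr10:60698270-60698529 on the minus strand), members that did not pass, are given in the same way. They were taken as the members with the highest mean signal among those that did not pass.
Pcna: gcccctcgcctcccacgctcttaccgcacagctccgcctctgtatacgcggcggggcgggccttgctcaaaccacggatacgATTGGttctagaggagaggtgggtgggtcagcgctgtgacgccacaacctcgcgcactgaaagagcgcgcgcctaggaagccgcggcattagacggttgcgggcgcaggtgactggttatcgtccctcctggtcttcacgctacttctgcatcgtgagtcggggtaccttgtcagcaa
Rpa1: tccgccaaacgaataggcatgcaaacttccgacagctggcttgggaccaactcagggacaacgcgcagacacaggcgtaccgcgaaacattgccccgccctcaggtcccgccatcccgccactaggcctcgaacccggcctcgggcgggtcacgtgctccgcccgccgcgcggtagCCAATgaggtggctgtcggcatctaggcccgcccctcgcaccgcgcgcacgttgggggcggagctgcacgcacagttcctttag
Neither window held the E2F letters. Among the 25 members with a window that passed, 6 held them, and among the 7 that did not pass, 3 did.

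In every role group described below, members passed with lower signals in adult than in day 20 preparations. In most groups others did not pass. Of the 38 members, 29 were lower in adult and 0 were higher at an adjusted p under 0.05 (76.3% lower), where 22.7% of all genes tested passed, 10.9% lower and 11.8% higher. The members were chosen with earlier results of these data known. Without adjustment 32 members had a p under 0.05, and all 38 differences lay below 0. The median difference was -0.66 (quartiles -0.93 and -0.38), against 0.01 over all genes. Among the 29, day 20 signals were 1.27- to 6.58-fold above adult, with a median of 1.77-fold. The signals of all 3 adult arrays lay below those of all 3 day 20 arrays for 31 members, a separation found in that direction for 18.7% of all genes and in the opposite direction for 20.9%. At least 2-fold falls were called for 8 members, Rrm2, Pole, Mybl2, Gins1, Prim1, Mcm5, Mcm6 and Mcm7, against 1.34% of all genes.

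**Figure D1:**
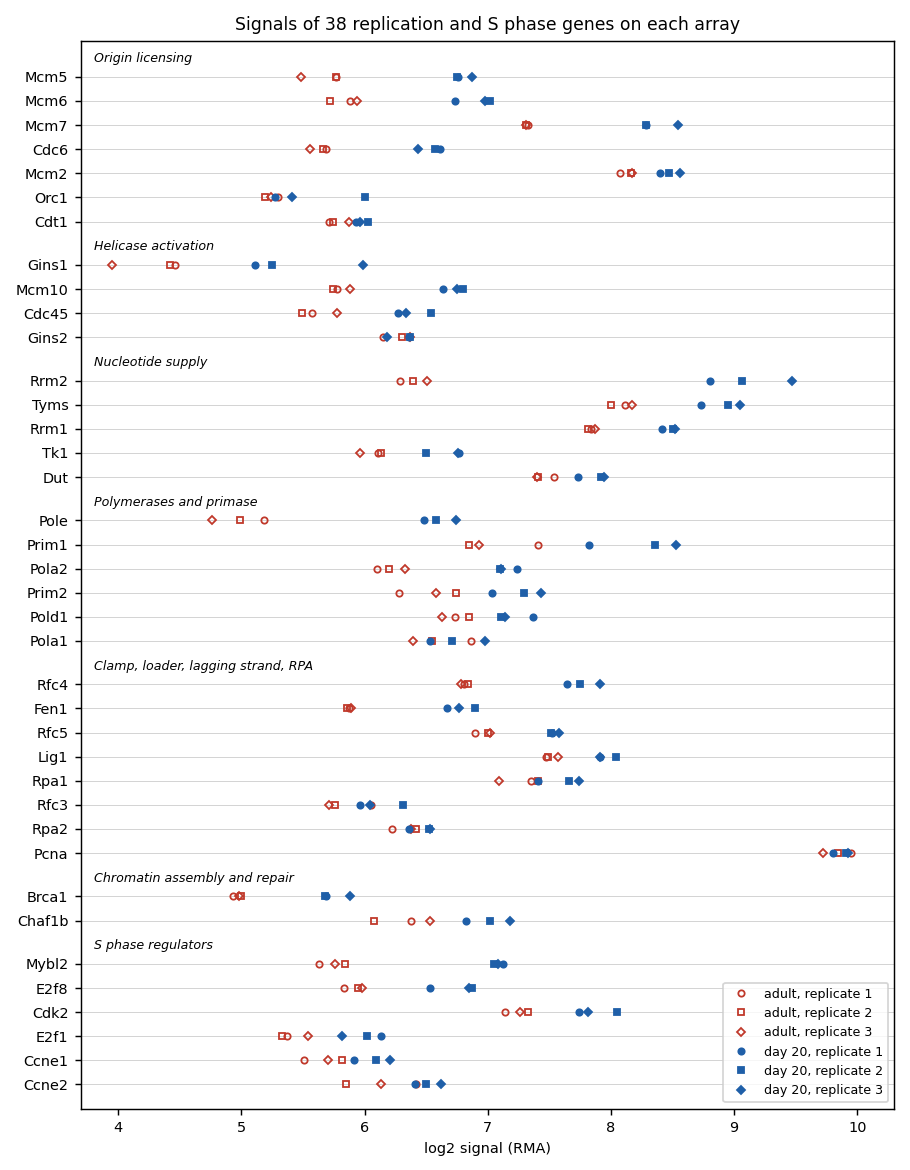
Log2 signal after RMA (x axis) of the 38 members (y axis, grouped by role) on each array; open red symbols are the 3 adult and filled blue symbols the 3 day 20 preparations, with the symbol shape giving the replicate number. The symbols of the 2 ages lie apart for 31 members, most widely for Rrm2, and overlap for members such as Pcna and Gins2.

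The supply of nucleotides showed the widest spread of differences, and all 5 of its measured members fell. Rrm2, the small subunit of ribonucleotide reductase that is made in S phase, had signals of 6.29, 6.39 and 6.51 in the adult and 8.80, 9.06 and 9.47 in the day 20 preparations. Every day 20 value was thus more than 2 log2 units above every adult value. The difference was -2.72 (SE 0.16, adjusted p = 3.5e-05), a 6.58-fold higher level at day 20 and the fall of rank 5 among 14506 genes. A second probe set assigned to Rrm2 gave -2.57 (adjusted p = 3.9e-05, over all named probe sets). RefSeq also lists a gene named Rrm2l1, and the array's probes may not separate the copies.

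Rrm1, the large subunit with the catalytic site, had signals of 7.84, 7.81 and 7.87 in adult and 8.41, 8.50 and 8.52 at day 20, and fell by 0.64 on the log2 scale (adjusted p = 0.0011). Its groups were narrow and apart. Its other probe set had a mean log2 signal of 4.62, below the first quartile, and a difference of -0.02 (adjusted p = 0.95). With both probe sets averaged, the difference of Rrm1 was -0.33 (limma adjusted p = 0.045). Tyms, thymidylate synthase, fell by 0.82 (8.09 ± 0.09 in adult against 8.91 ± 0.16, SD, n = 3, limma adjusted p = 0.0012). Tk1, the thymidine kinase of the salvage route, fell by 0.61 (adjusted p = 0.004). Dut, the dUTPase that keeps uracil out of DNA, fell by 0.41 (adjusted p = 0.014), which did not hold when adult replicate 3 or day 20 replicate 2 was left out (largest adjusted p 0.057).

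Among genes of origin licensing, 5 of 7 measured members fell. The helicase subunits Mcm5, Mcm6 and Mcm7 each fell by about 1 log2 unit, and Mcm2 passed with a smaller measured difference. Mcm5 signals were 5.77, 5.77 and 5.48 in adult and 6.76, 6.75 and 6.87 at day 20, a difference of -1.12 (SE 0.10, adjusted p = 2.7e-04). Mcm6 signals were 5.88, 5.72 and 5.94 in adult against 6.73, 7.02 and 6.98, a difference of -1.07 (SE 0.11, adjusted p = 3.8e-04). Both subunits were thus about 1 log2 unit lower in each adult preparation. Mcm7, with 7.33, 7.31 and 7.31 in adult and 8.28, 8.28 and 8.54 at day 20, differed by -1.05 (SE 0.10, adjusted p = 2.7e-04). These 3 subunits carry the E2F letters in the windows printed above, which were chosen for holding them. Whether the letters go with the size of a fall was not tested.

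Mcm2, another subunit of the same ring, had signals of 8.07, 8.16 and 8.17 in adult and 8.40, 8.47 and 8.56 at day 20. Its groups were apart, but by a small margin, with a difference of -0.34 (SE 0.09, adjusted p = 0.022). That call was kept only without day 20 replicate 1 (adjusted p = 0.033) and lost without each of the other 5 arrays in turn (adjusted p up to 0.067). Cdc6, the loader of the helicase, fell by 0.90 (5.69, 5.66 and 5.56 in adult against 6.61, 6.57 and 6.43, adjusted p = 3.7e-04), and its adult and day 20 signals did not overlap. Its partner Cdt1 did not pass, although its signals, 5.71, 5.74 and 5.87 in adult and 5.93, 6.03 and 5.96 at day 20, did not overlap either (difference -0.20, adjusted p = 0.14). Orc1, the origin recognition subunit whose level varies with the cycle, did not pass (difference -0.31, 95% interval -0.70 to 0.07, adjusted p = 0.24). Its signals were low, at 5.30, 5.19 and 5.24 in adult and 5.27, 6.0 and 5.41 at day 20. Only day 20 replicate 2 stood above the others.

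Of the 4 measured factors that turn the loaded helicase on, 3 fell. Mcm10, which joins the helicase at firing, had signals of 5.78, 5.74 and 5.88 in adult and 6.64, 6.80 and 6.75 at day 20 (difference -0.93, SE 0.09, adjusted p = 3.0e-04). Cdc45, a part of the active helicase, fell by 0.77 (adjusted p = 0.0019). Gins1 and Gins2 are subunits of the GINS complex, of which Gins1 passed. Gins1 signals were 4.46, 4.42 and 3.95 in adult and 5.11, 5.25 and 5.99 at day 20 (difference -1.17, SE 0.23, adjusted p = 0.007). Its adult mean of 4.28 was under the arrays' first quartile, which leaves the size of its fall uncertain. Gins2, with 6.15, 6.30 and 6.37 in adult and 6.36, 6.37 and 6.18 at day 20, had overlapping groups and a difference of -0.03 (95% interval -0.26 to 0.19, adjusted p = 0.86).

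Among the polymerases, 5 of 6 measured members fell. Pole, the catalytic subunit of the leading strand polymerase epsilon, had signals of 5.18, 4.99 and 4.76 in adult and 6.48, 6.58 and 6.74 at day 20. The difference of -1.63 (SE 0.12, adjusted p = 9.2e-05) was the next largest after that of Rrm2, and its adult mean of 4.98 lay just above the first quartile. Pold1, the catalytic subunit of the lagging strand polymerase delta, fell by 0.47 (adjusted p = 0.013), a call lost without adult replicate 3 (adjusted p = 0.051). Prim1, the catalytic subunit of primase, had signals of 7.41, 6.85 and 6.93 in adult and 7.82, 8.36 and 8.53 at day 20 (difference -1.17, SE 0.20, adjusted p = 0.004). Its values spread more within each age than those of most members. The large primase subunit Prim2 fell by 0.71 (adjusted p = 0.0081).

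Of the polymerase alpha subunits 1 passed. Pola2, the accessory subunit, had signals of 6.10, 6.20 and 6.33 in adult and 7.24, 7.10 and 7.11 at day 20 (difference -0.94, SE 0.09, adjusted p = 3.8e-04). The catalytic subunit Pola1, at 6.86, 6.55 and 6.39 in adult and 6.53, 6.71 and 6.98 at day 20, overlapped between ages and did not pass (difference -0.14, 95% interval -0.48 to 0.20, adjusted p = 0.59).

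Genes of the sliding clamp, its loader, lagging strand maturation and single-strand binding had 4 calls among 8 members, the lowest share of the 7 role groups. Pcna, the clamp itself and a widely used proliferation marker, had signals of 9.95, 9.84 and 9.72 in adult and 9.80, 9.91 and 9.92 at day 20. The groups overlapped fully, with a difference of -0.04 (95% interval -0.25 to 0.17, adjusted p = 0.81). RefSeq lists 3 pseudogenes named for Pcna, Pcna-ps1 to Pcna-ps3, and whether they share the array's probes was not tested. Pseudogenes named for a member are also listed for Dut, Mcm2, Mcm7, Rfc4, Rfc5, Rpa1, Rrm1 and Tk1, among them members that fell.

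Of the clamp loader subunits, Rfc4 fell most, with 6.81, 6.84 and 6.78 in adult and 7.64, 7.75 and 7.91 at day 20 (difference -0.95, SE 0.09, adjusted p = 3.4e-04). Rfc5 fell by 0.57 (adjusted p = 0.002), and Rfc3 did not pass (difference -0.26, adjusted p = 0.19). The loader subunits Rfc1 and Rfc2, measured outside the members, did not pass either (differences 0.18 and -0.02, limma adjusted p = 0.26 and 0.88). Fen1, the nuclease that trims the flaps of Okazaki fragments, was 5.87, 5.86 and 5.89 in adult and 6.67, 6.90 and 6.77 at day 20 (difference -0.90, SE 0.09, adjusted p = 3.4e-04). Its adult signals were nearly alike and all below those of day 20. Lig1, the ligase that seals the fragments, fell by 0.44 (adjusted p = 0.0067). The single-strand binding subunits Rpa1 and Rpa2 did not pass (differences -0.32 and -0.13, adjusted p = 0.095 and 0.37), and Rpa1 passed with array weights and with a second quantile normalization.

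Of the chromatin and repair members, Chaf1b, a subunit of the chromatin assembly factor that places histones behind the fork, fell by 0.68 (6.33 ± 0.23 in adult against 7.01 ± 0.18, SD, n = 3, limma adjusted p = 0.0084). Brca1, which acts in the repair of broken forks, fell by 0.78 (4.97 ± 0.04 against 5.75 ± 0.11, adjusted p = 6.7e-04), with an adult mean close to the first quartile.

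Among 6 regulators of S phase entry 5 fell. Mybl2, the B-Myb transcription factor that drives late cycle genes, had signals of 5.63, 5.84 and 5.76 in adult and 7.12, 7.05 and 7.08 at day 20. Its day 20 values were nearly alike and lay more than 1 log2 unit above all adult values (difference -1.34, SE 0.09, adjusted p = 5.6e-05). E2f8, an atypical E2F that represses transcription, fell by 0.83 (adjusted p = 0.0013), and E2f1, an activating E2F, by 0.58 (adjusted p = 0.0058). Cdk2, the kinase partner of cyclins E and A, fell by 0.63 (7.24 ± 0.10 against 7.87 ± 0.16, n = 3, limma adjusted p = 0.004). Both cyclin E genes had small differences. Ccne1 fell by 0.39 (adjusted p = 0.037), which did not hold when any of 4 arrays was left out, adult replicates 1 and 3 and day 20 replicates 2 and 3 (largest adjusted p 0.10). Ccne2, with 6.42, 5.85 and 6.13 in adult and 6.41, 6.50 and 6.62 at day 20, did not pass (difference -0.38, adjusted p = 0.092). The high value of adult replicate 1 made its groups overlap, and without that array it passed (difference -0.52, adjusted p = 0.022).

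**Figure D2:**
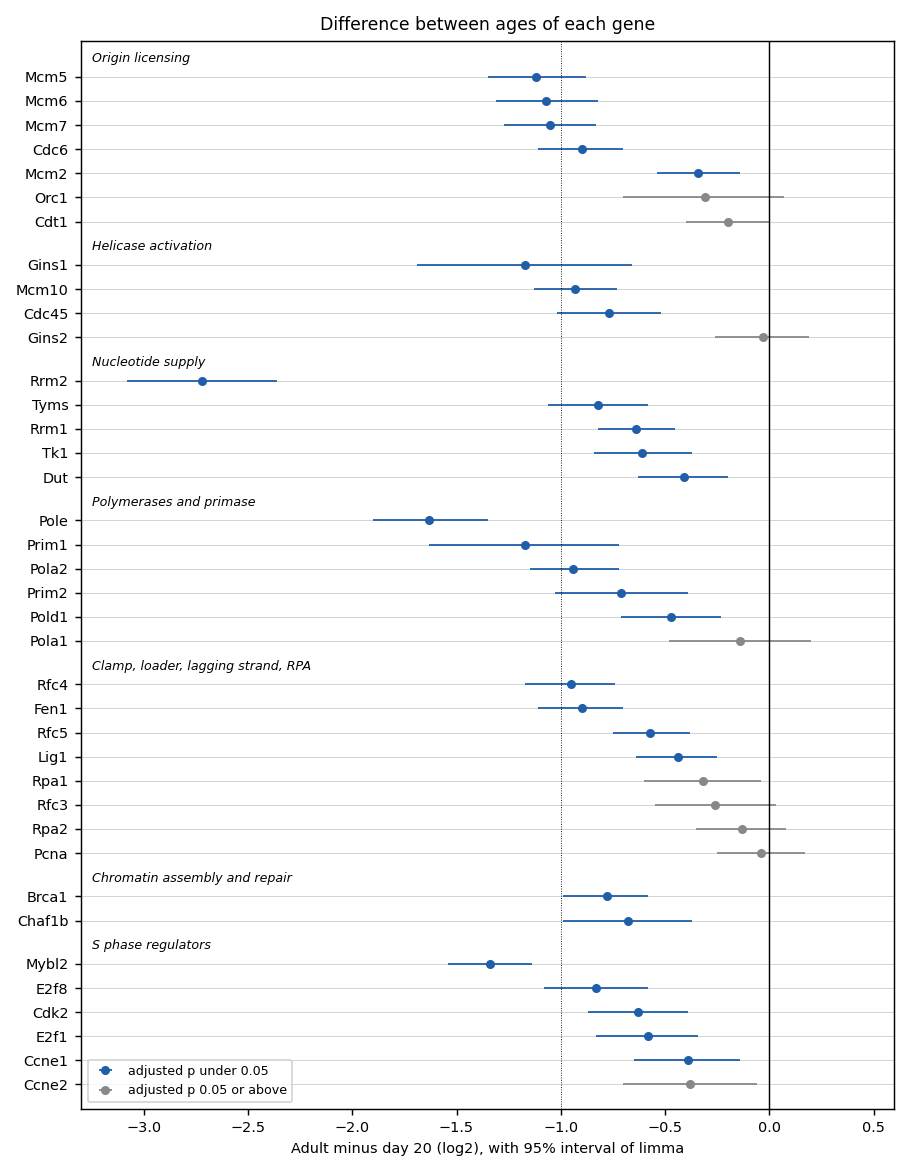
Adult minus day 20 difference on the log2 scale (x axis) with its 95% interval from limma for the 38 members (y axis, grouped by role); blue points passed at an adjusted p under 0.05 and grey points did not, and the dotted line marks a 2-fold fall. All points lie left of 0, from -2.72 for Rrm2 to -0.03 for Gins2, and 29 are blue.

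For 12 pairs of partners the log2 ratio within each array is given by age as a description. The pairs were chosen with the single-gene values in view, and an exact permutation test of 3 arrays against 3 cannot go below p = 0.10, so that no difference between partners is shown by a test. The ratio of Rrm2 to Rrm1 dropped by 2.08 between day 20 and adult. Ratios to Mcm2 dropped by 0.77 for Mcm5, by 0.73 for Mcm6 and by 0.71 for Mcm7, each with all adult arrays below all day 20 arrays. That of Gins1 to Gins2 dropped by 1.14, and that of Pola1 to Pola2 was 0.80 higher in adult, again without overlap of the ages. In the fit with the pan-endocrine covariate described further on, these became -1.84 and 0.41. For the loader, Rfc3 to Rfc4 was 0.69 higher and Rfc5 to Rfc4 0.39 higher in adult, also without overlap. The ages overlapped for Prim1 to Prim2 (-0.46), Rpa1 to Rpa2 (-0.19), Ccne1 to Cdk2 (0.23) and Ccne2 to Cdk2 (0.25), and the last turned to -0.29 with that covariate.

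A wider list of replication genes outside the members also held more falls than rises. Of 47 measured, 20 were lower (42.6%) and 1 higher in adult, with a median difference of -0.29. The other 26 did not pass, among them the origin recognition subunits Orc2 to Orc6 and the GINS subunit Gins3 (-0.14, limma adjusted p = 0.39). Over all genes 10.9% were lower and 11.8% higher. This list was chosen with earlier results of these data known. The difference between the share of these 47 genes and that of the members was not tested. The falls of greatest size were those of Asf1b, a histone chaperone (-1.20, adjusted p = 0.0013), Dctpp1, a dCTP pyrophosphatase (-1.17, adjusted p = 4.6e-04), the single-strand binding subunit Rpa3 (-1.09, adjusted p = 0.0011) and the GINS subunit Gins4 (-1.05, adjusted p = 0.0028).

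The gene that rose was Rrm2b, the alternative small subunit of ribonucleotide reductase, which p53 induces and which serves cells outside S phase. Its signals were 6.97, 6.74 and 6.62 in adult and 5.70, 5.99 and 6.09 at day 20, without overlap, a difference of 0.85 (1.80-fold higher in adult, adjusted p = 0.0024). The small subunits Rrm2 and Rrm2b thus differed with age in opposite directions in the same arrays.

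Genes of mitosis, the division that follows replication, were the closest comparison. Of 41 measured, 40 were lower in adult (97.6%, against 10.9% of all genes), where 29 of 38 replication members were. The median difference was -1.56, against -0.66 for the replication members. Both lists were chosen with results of these data known, and the difference between them was not tested. The largest falls among them, those of Ska3, Top2a, Ccna2 and Bub1, lay between -2.77 and -2.54. Among the replication members, Rrm2 (-2.72) was the only gene whose difference fell in that range.

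**Figure D3:**
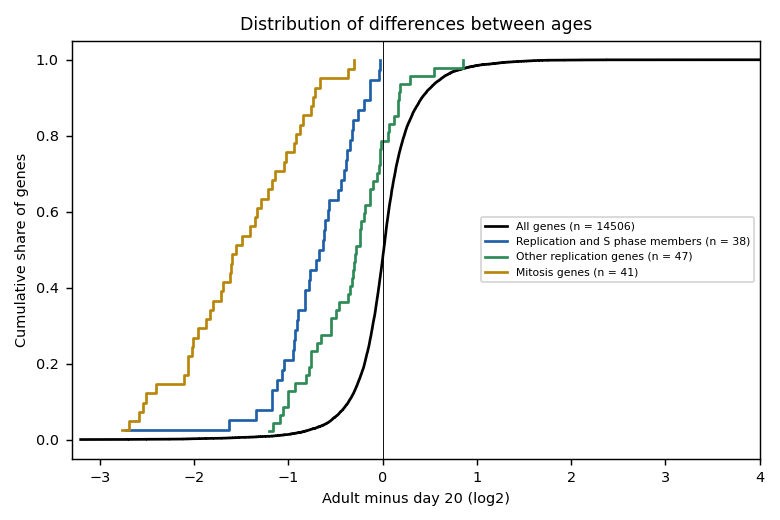
Cumulative share of genes (y axis) by adult minus day 20 difference on the log2 scale (x axis) for all 14506 genes (black), the 38 replication members (blue), 47 other replication genes (green) and 41 mitosis genes (yellow). The median lies at 0.01 for all genes, -0.66 for the members, -0.29 for the other replication genes and -1.56 for the mitosis genes.

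Averaged over the 38 members, the log2 signal was 6.42, 6.40 and 6.40 on the adult and 7.02, 7.16 and 7.20 on the day 20 arrays. The adult preparations were nearly alike and the day 20 preparations spread more. Day 20 replicate 1 gave the lowest of the 3 day 20 signals for 18 of the 29 members that fell, and replicate 3 the highest for 16. For 20 of the 29 the SD was larger at day 20 than in adult.

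Markers of several other cell types also differed with age. All 11 measured endothelial markers were lower in adult, with list means between 5.74 and 5.88 on adult and between 6.70 and 7.32 on day 20 arrays. Of 12 fibroblast and stellate cell markers 6 were lower (means of 6.22 to 6.40 against 6.91 to 7.17). Vim (-2.81), Sparc (-2.21) and Dcn (-1.52) differed most there, while Col1a1, Col1a2, Col3a1 and Pdgfra did not pass, and the median of that list was -0.32. Of 8 markers of other islet cells 6 were lower (8.21 to 8.53 against 9.20 to 9.55). Of 12 leukocyte markers 2 were lower (16.7%, near the 10.9% of all genes), Cd48 (-2.85) and Cd68 (-0.88), with a list median of -0.12 and means of 5.37 to 5.43 against 5.70 to 5.85. None of these lists had a member that rose. Beta cell markers were higher in adult for 6 of 8, and the 12 pan-endocrine genes, of granules and prohormone processing, for 9 (means of 10.55 to 11.24 against 9.39 to 10.40). The beta cell markers that did not pass were Ins1 and Ins2, with mean log2 signals of 14.15 and 14.20, near the top of the scale. Acinar markers had 0 of 12 calls in limma, with 1 at an unadjusted p under 0.05. Most of them, however, such as Cela3b (mean log2 signal 14.29) and Ctrb1 (14.59), lay at the top of the scale. A difference in acinar share might not show there. Lower on the scale lay Rbpjl (mean 12.26, difference -0.03, limma adjusted p = 0.91) and Bhlha15 (mean 10.5, difference -0.21, limma adjusted p = 0.23). Over all genes 10.9% were lower and 11.8% higher. Duct markers had 2 lower and 1 higher of 8 (means of 9.46 to 9.48 against 9.46 to 9.88), with a list median of -0.02. Erythroid markers had 1 higher of 4 (5.64 to 5.78 against 5.57 to 5.70), with a list median of 0.05. The part of these cells in the fall of the replication genes was not tested, and which cells were in S phase cannot be read from bulk RNA.

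Within day 20 the order of the arrays differed between lists. The endothelial mean was lowest in replicate 2, at 6.70 against 7.32 and 7.19 in replicates 1 and 3. In replicates 1, 2 and 3 the mean of the replication members was 7.02, 7.16 and 7.20, and that of the mitosis genes 7.17, 7.43 and 7.56. The mean of the other islet markers was 9.29, 9.20 and 9.55. Whether these orders are related was not tested. The pan-endocrine mean was 9.95, 9.39 and 10.40 in replicates 1, 2 and 3.

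**Figure D4:**
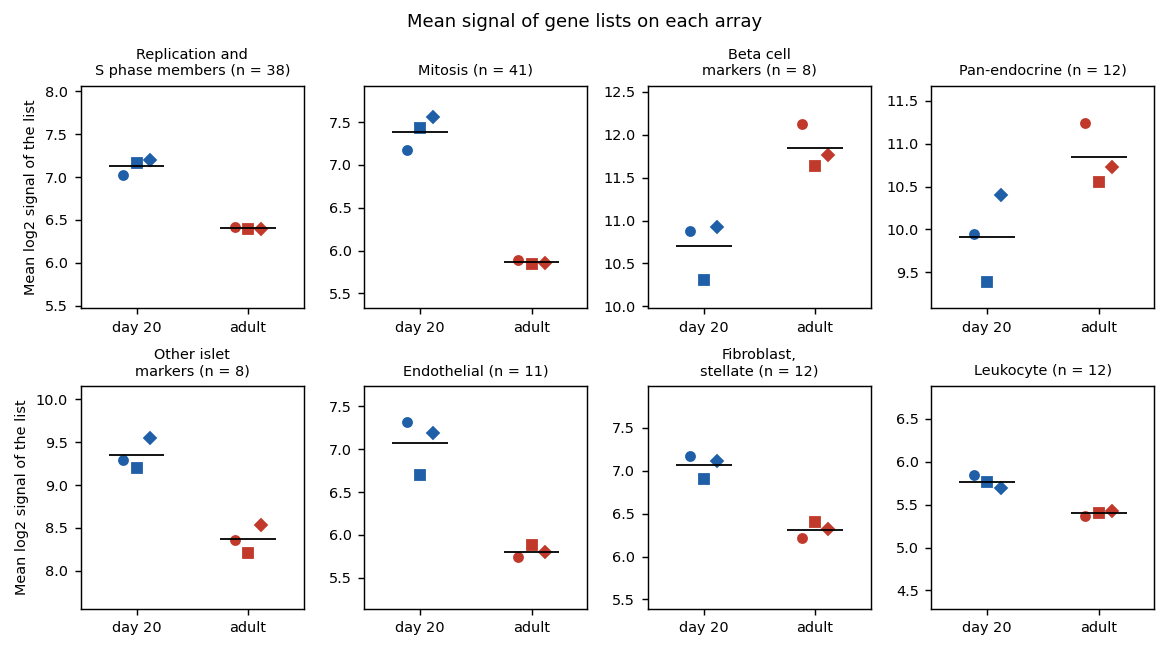
Mean log2 signal (y axis) of each gene list on the 3 day 20 (blue) and 3 adult (red) arrays; circles, squares and diamonds are replicates 1, 2 and 3, lines are group means, and every panel spans the same 2.6 log2 units. The means of the replication, mitosis, endothelial and other islet lists lie lower in adult and those of the beta cell and pan-endocrine lists higher, while the lower fibroblast and leukocyte means go with list medians of only -0.32 and -0.12.

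When the fit took the mean of these 12 pan-endocrine genes as a covariate, the members' median difference hardly moved while fewer members passed. It was -0.67, against -0.66 without it, and 36 of 38 differences lay below 0. Of the 29 members that fell, 17 still passed, with 0 higher, while the genes called over the whole array went from 3294 to 773. Rrm2 (-2.89, adjusted p = 7.9e-04), Pole (-1.83, adjusted p = 0.0011), Mybl2 (-1.27, adjusted p = 0.0023) and Mcm7 (-1.21, adjusted p = 0.0031) had the smallest adjusted p-values in that fit. Calls of Mcm2, Cdc45, Dut, Prim2, Pold1, Rfc5, Lig1, Chaf1b, E2f1, E2f8, Ccne1 and Cdk2 were lost, with adjusted p-values from 0.052 to 0.39. The covariate is itself higher in adult, and its genes may also change within beta cells, so it is no measure of endocrine share alone.

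**Figure D5:**
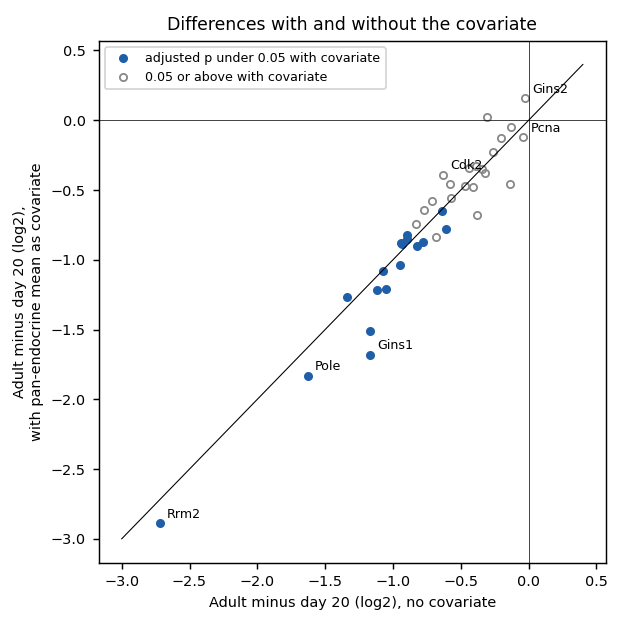
Adult minus day 20 difference of the 38 members in the fit with the pan-endocrine covariate (y axis) against the difference without it (x axis), both on the log2 scale; filled points passed at an adjusted p under 0.05 with the covariate and the diagonal marks equal values. The medians are -0.67 with and -0.66 without the covariate, and 17 points are filled. Single members moved either way, such as Gins1 from -1.17 to -1.68 and Cdk2 from -0.63 to -0.39.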

How the data were processed

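Total RNA of 6 preparations was hybridised to whole-transcript arrays, 1 array each, 3 per age. The authors deposited RMA-processed log2 signals, 1 per probe set and array, as the submitters' processing notes state (RMA). The log2 scale was read from their range, while the software, annotation and build behind them were not given in the sources used here. Of 29214 probe sets 15310 had 1 gene symbol, 323 several and 13581 none. Symbols were updated by Entrez identifier or accession, giving 14506 genes. Where a gene had more than 1 probe set (527 genes), that of highest 6-array mean stood for it. Columns of other series numbered 0.

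Adult was compared with day 20 by limma (version 3.58.1, lmFit with eBayes, under R 4.3.3), two-sided, Benjamini-Hochberg over all genes. The fit was tested on simulated data. Each limma p-value sets the difference between ages against the spread between preparations, which eBayes moderates over all genes. The number of arrays limits the precision. Members and lists were chosen with earlier results of these data known. All members were named. Array values were given for the 12 largest differences and, per role, for the member of highest signal that did not pass. Those of Cdc6, Mcm2, Orc1 and Rrm1 were added after their values were seen. In other lists the 4 largest changes per direction were named. Orc2 to Orc6, Gins3, Rfc1 and Rfc2 were added there after their values were seen. Replicate numbers did not pair the arrays (correlations of deviations -0.19, 0.19 and -0.21 for equal numbers). Promoter letters were searched with Python 3.11.15. The alternatives' effects are given in the closing section.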

Additional observations from a re-analysis of the deposited data

How the results depend on the processing

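Members lower in adult numbered 29 over all arrays and 25 to 29 with each array left out in turn, with 0 higher and a median of -0.73 to -0.63. Of the 29, 25 passed in each of those 6 fits. Tested against a fold of 1.2, 19 members passed, 12 other replication genes and 933 genes in all. With the pan-endocrine covariate the numbers were 17, 11 and 773. Without adult replicate 1 and day 20 replicate 2 together, 23 members and 1861 genes passed. Leaving out 1 array gave 2159 to 2925 genes, the lowest without day 20 replicate 2. Mitosis genes had 35 to 40 calls in all but the filtered fit, which holds fewer genes (32). With genes of low mean signal removed, 24 members were called. The replicate number as a block gave 29 members, 17 other replication genes and 2609 genes, and since the numbers did not pair the arrays it is given here once. Array weights added Rfc3, Rpa1 and Ccne2 (32 members). A second quantile normalization added Rpa1 (30). Each of 4 other alternatives gave 29 members (averaged probe sets, all named probe sets, median centring, eBayes with trend and robust). No member was called higher under any of these alternatives. Low signals near the first quartile, as of Gins1, limit the size of a fall.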
